A study of Mus musculus with 8 samples.

Results

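Mammalian cells take up, release and exchange amino acids through several families of solute carriers. The gene symbols of the Slc1, Slc3, Slc6, Slc7, Slc36, Slc38 and Slc43 families followed by a member number were matched in the expression tables, and 59 of 22987 genes listed at 1 locus matched. Their RNA levels were described in mouse embryonic stem cells (mESC, the naive state of pluripotency) and mouse epiblast stem cells (mEpiSC, the primed state), from polyadenylated RNA of 4 libraries per state. mESC libraries 1 and 2 came from line ESF122 and libraries 3 and 4 from line ESF175/1. mEpiSC library 1 came from line EpiSC5, libraries 2 and 3 from EpiSC7, and library 4 from EpiSC9. The labels give no strain, sex, genotype or added allele for any of these 5 lines. Both states grew on irradiated mouse embryonic fibroblast feeders in Knockout DMEM with 20% serum replacement, 2 mM Glutamax, which is a glutamine dipeptide, 1x non-essential amino acids and 2-mercaptoethanol. Leukemia Inhibitory Factor was added for mESC and 10 ng/ml FGF2 for mEpiSC. The cells were separated from the feeders before RNA was taken, and the medium, passaging method and cell line all differ between the states, so these cannot be told apart from the state itself.

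As background, SLC7 light chains cross the membrane and are brought to the cell surface by an SLC3 heavy chain, so the usual transporter is a pair of proteins. SLC1 members carry glutamate or exchange small neutral amino acids including glutamine, SLC38 members carry glutamine, alanine and other neutral amino acids with sodium, SLC6 members carry taurine, creatine, glycine, neurotransmitters or neutral amino acids with sodium and chloride, SLC36 members carry small amino acids with protons, and SLC43 members carry large neutral amino acids without sodium. In pluripotent cells, supply of glutamine, leucine, arginine and cystine feeds protein synthesis, the mTORC1 growth pathway and glutathione.

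The deposited tables implied 24800000 to 38600000 fragments per library. All 8 naive pluripotency markers fell in mEpiSC. Their summed level was 187 to 365 FPKM (a fragment count divided by transcript length and library size) in mESC and 8.1 to 12.2 in mEpiSC. Of 6 primed epiblast markers 4 rose. The test described below called 0 of 3 core factors, which does not show equal levels. It called 23.1% of all tested genes higher and 14.2% lower in mEpiSC. All 15 feeder fibroblast markers were above 0 in every library, and 5 of the 14 tested rose (35.7%). Their summed level was 297, 41.5, 56.5 and 8.58 FPKM in mESC 1 to 4 and 579, 307, 189 and 100.5 in mEpiSC 1 to 4. Primitive endoderm markers summed to 2.93 to 5.83 FPKM in mESC and to 71.1, 9.47, 20 and 11.3 in mEpiSC 1 to 4, with EpiSC5 highest. mESC 4 and mEpiSC 4 stood apart from the other libraries on the second principal component (-33.5 and -48.9 against 8.8 to 20.6). In bulk RNA, fewer cells of a type and less RNA per cell cannot be told apart. Whether the libraries of a line are independent cultures is not stated in the labels, and the p-values therefore reflect the library-to-library spread alone, which may in part be technical.

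In total 30 of the 59 transporters (50.8%) reached 1 FPKM in at least 4 libraries and were tested, against 50.3% of all genes. Of the 30, 8 rose and 4 fell in mEpiSC at a Benjamini-Hochberg adjusted p under 0.05 in limma fitted to log2(FPKM + 1) of 11556 genes. That was 40% called, beside 37.3% of all tested genes (23.1% higher and 14.2% lower). The median difference was 0.24 log2 for the 30 transporters and 0.08 for all tested genes. A change of at least 2-fold on that scale was called for 5 of the 30, beside 15.1% of all tested genes (9.93% higher and 5.19% lower). Slc7a6, Slc1a3, Slc38a3 and Slc38a5 were higher and Slc1a5 was lower. For 9 of 30 transporters all libraries of a state lay above all libraries of the other, beside 37.1% of all genes. For 16 of the 30 the whole 95% interval of the difference lay within 1 log2 unit either way, beside 62.2% of all genes. The split depended on scaling, for all genes as well as for the transporters. With median ratio scaling, which moved the median log2 of all genes from 0.083 to -0.046, 5 transporters were called higher and 8 lower. Quantile normalization gave 5 higher and 7 lower. Over all genes, 2665 higher and 1640 lower in the main fit became 2139 and 2346 with median ratio scaling. With quantile normalization they became 2187 and 2211. When the average fibroblast marker level entered the fit as a covariate, an alternative added after the data had been seen, 5 were higher (Slc7a6, Slc1a3, Slc38a3, Slc36a4 and Slc43a3) and 0 lower. Over all genes that covariate gave 2196 higher and 1094 lower. Blocking on the replicate number, a pairing the labels do not give, gave 9 higher and 8 lower, and 3150 and 2055 over all genes. Libraries of a line may not be independent. With cell line as a random block 4 were higher and 1 lower (5 of the 12 calls kept), and with 1 mean per line 3 were higher and 1 lower (4 kept). Over all genes the random block gave 1796 higher and 1046 lower, and 1 mean per line 865 and 557.

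**Figure D1:**
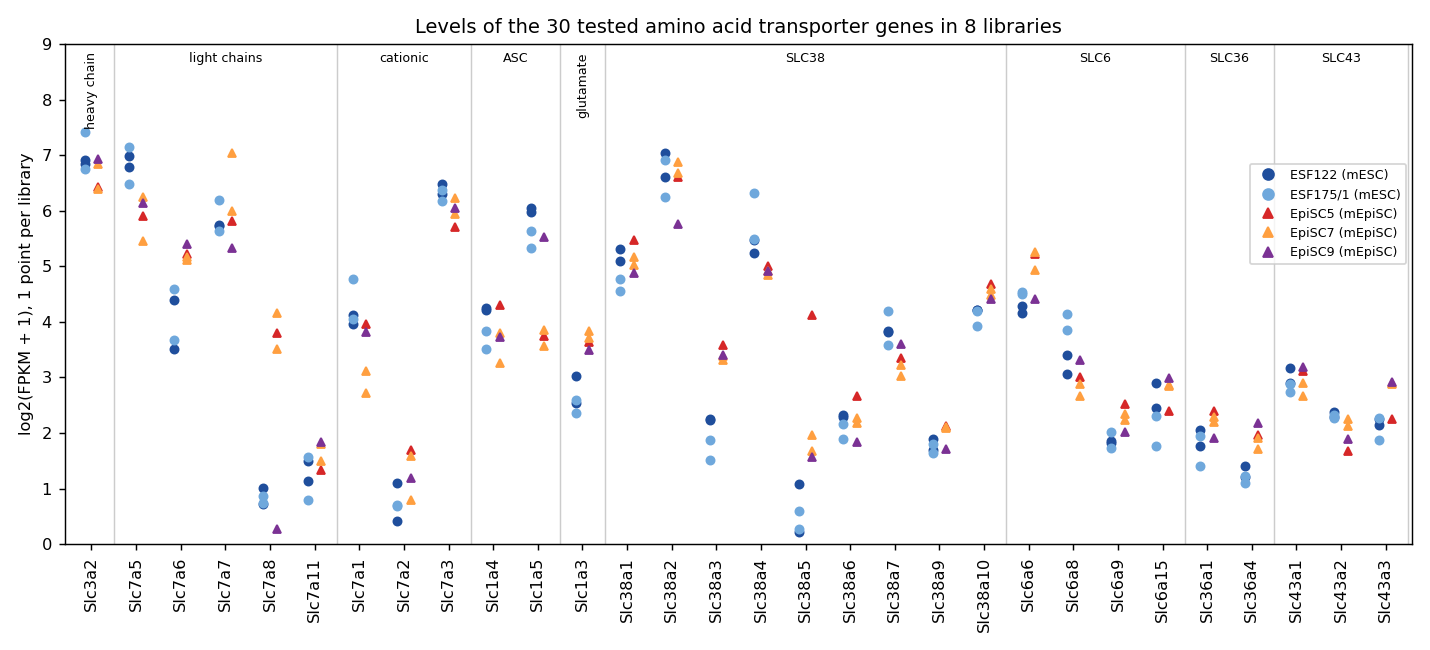
Level of each of the 30 tested transporters on the log2(FPKM + 1) axis, with 1 point per library, circles for the mESC lines and triangles for the mEpiSC lines, grouped by role. The highest transporters (Slc3a2, Slc7a5, Slc38a2, Slc7a3) are high in both states. Slc38a3, Slc1a3 and Slc7a6 (higher in mEpiSC) and Slc7a5 (lower) are among those that separate the states in all 8 libraries.

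**Figure D2:**
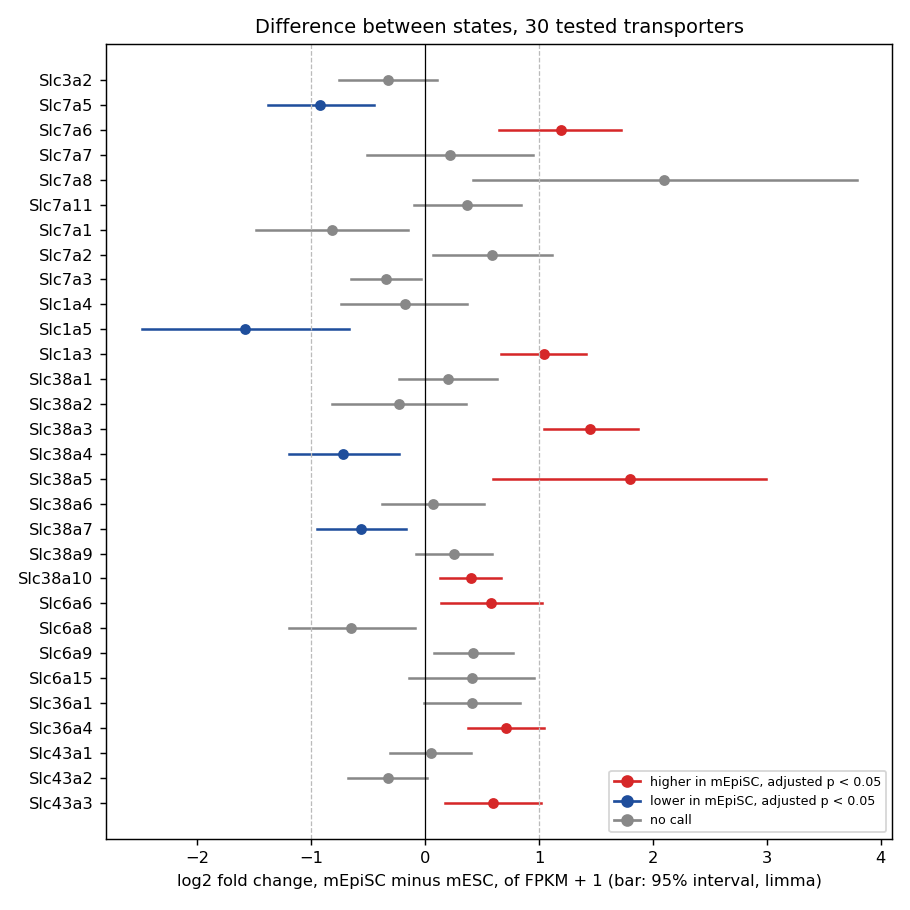
Difference between states for the 30 tested transporters, as log2 fold change of FPKM + 1 with its 95% interval from limma. Dashed lines mark a 2-fold difference, and the 8 higher and 4 lower calls are coloured.

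A few transporters held most of the RNA of all 59. The 6 highest in each library held 69.5 to 71.6% of the summed FPKM in mESC and 57.6 to 68.6% in mEpiSC. By mean level the order in mESC was Slc3a2, Slc7a5, Slc38a2, Slc7a3, Slc7a7, Slc1a5 and Slc38a4, and in mEpiSC it was Slc3a2, Slc38a2, Slc7a7, Slc7a3, Slc7a5 and Slc7a6. Slc7a6 was number 12 in mESC and number 6 in mEpiSC, and Slc1a5 moved from number 6 to number 11. Summed over all 59 genes the level was 774, 780.1, 686 and 863 FPKM in mESC 1 to 4 and 678, 771, 647 and 647 in mEpiSC 1 to 4, so the ranges of the totals overlapped.

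The heavy chain genes were taken first. Slc3a2 (chromosome 19, 8781372 to 8797859, mm9, as are all gene positions here unless stated), the heavy chain known as CD98hc, was at 113, 119.5, 106 and 169.7 FPKM in mESC 1 to 4 and at 85.4, 114, 82.7 and 120.2 in mEpiSC 1 to 4. The states overlapped, and mESC 4 was the highest library. The difference was -0.33 log2 (SE 0.19, 95% interval -0.76 to 0.10, limma adjusted p = 0.20), and with the replicate block the adjusted p was 0.035. Slc3a1, the other heavy chain, known for cystine transport in kidney, did not exceed 0.228 FPKM and was not tested.

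Of the 10 light chain genes, 5 were tested, Slc7a6 rose and Slc7a5 fell (40% called, beside 37.3% of all tested genes). The called light chains thus moved in opposite directions. Slc7a5 (chromosome 8, 124405046 to 124431586), the LAT1 exchanger of leucine and other large neutral amino acids, was at 109, 125, 88.4 and 141 FPKM in mESC 1 to 4 and at 58.7, 74.6, 42.6 and 69.1 in mEpiSC 1 to 4. All 4 mESC libraries were above all 4 mEpiSC libraries. It fell by 0.92 on the log2 scale (SE 0.21, limma adjusted p = 0.0081), from 116 ± 22.3 to 61.3 ± 14.1 FPKM (SD, n = 4 each). The adjusted p was 0.059 with cell line as a random block and 0.058 with the fibroblast covariate.

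Slc7a6 (chromosome 8, 108692775 to 108722604), the y+LAT2 exchanger of cationic for neutral amino acids, was at 10.4, 19.9, 11.8 and 23 FPKM in mESC 1 to 4 and at 36.4, 33.7, 34.9 and 41.1 in mEpiSC 1 to 4. Every mEpiSC library was above every mESC library, and the mEpiSC values lay close together. It rose 2.27-fold on the log2(FPKM + 1) scale (1.19 log2, SE 0.24, limma adjusted p = 0.0048) and was called under all 19 alternatives tried. Slc7a7 (chromosome 14, 54989126 to 55036539), the related y+LAT1, was at 52.3, 51.7, 48.5 and 72 FPKM in mESC 1 to 4 and at 55.2, 130, 62.6 and 39.2 in mEpiSC 1 to 4. Of the EpiSC7 libraries 1 was high and the other was not, and the states overlapped (0.22 log2, SE 0.32, limma adjusted p = 0.62). Slc7a7 overlaps Oxa1l, which shares 5.42% of the 50-base windows of its transcripts and was also high in both EpiSC7 libraries (69.6 and 76.4 against 18.4 to 35.1 FPKM in the other 6). With no strand information given, reads of overlapping genes cannot be told apart.

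Slc7a8 (chromosome 14, 55341052 to 55400723), the LAT2 exchanger of neutral amino acids, was at 0.64, 1.01, 0.811 and 0.676 FPKM in mESC 1 to 4 and at 13, 10.4, 16.9 and 0.2 in mEpiSC 1 to 4. The libraries of EpiSC5 and EpiSC7 were above all others, and the EpiSC9 library was below all mESC libraries. Over all 8 libraries the difference was 2.10 log2 (SE 0.74, limma adjusted p = 0.052). With the replicate block the adjusted p was 0.038, and without mEpiSC 4 the difference was 3.00 log2 with an adjusted p of 3.3e-05. Slc7a11, the xCT exchanger of cystine for glutamate, stayed low, at 0.738 to 1.95 FPKM in mESC and 1.51 to 2.56 in mEpiSC (limma adjusted p = 0.20).

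The 6 light chains that pair with Slc3a2 (Slc7a5, Slc7a6, Slc7a7, Slc7a8, Slc7a10 and Slc7a11) had a summed level of 174, 199, 150.4 and 238 FPKM in mESC 1 to 4 and 165, 251, 159.6 and 152 in mEpiSC 1 to 4. Slc7a5 made up 62.8, 62.7, 58.8 and 59% of that sum in mESC 1 to 4 and 35.6, 29.8, 26.7 and 45.4% in mEpiSC 1 to 4. Slc7a6 made up 6, 9.99, 7.86 and 9.63% in mESC and 22.1, 13.5, 21.9 and 27% in mEpiSC. The sums overlapped between the states, and neither of these shares did. The level of Slc3a2 over that sum was 0.599 to 0.712 in mESC and 0.518, 0.456, 0.518 and 0.788 in mEpiSC 1 to 4, with EpiSC9 highest and the other mEpiSC libraries lowest. These shares are descriptions of RNA levels and carry no test.

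**Figure D3:**
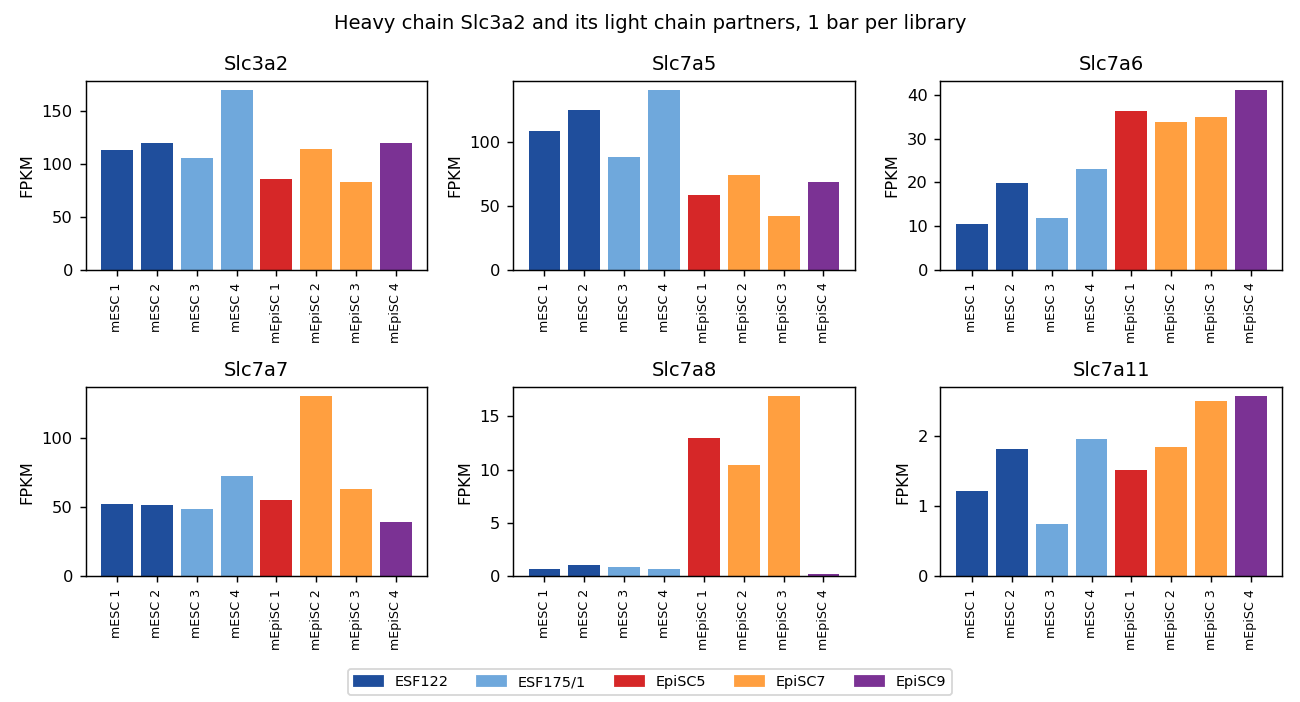
FPKM of the heavy chain Slc3a2 and of 5 light chains, with 1 bar per library coloured by cell line and an axis of its own for each gene. Slc7a5 is higher in every mESC library, Slc7a6 in every mEpiSC library, and Slc7a8 is at 10.4 to 16.9 FPKM in EpiSC5 and EpiSC7 but at 0.2 in EpiSC9.

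Of the 4 genes of the cationic (arginine and lysine) carriers, 3 were tested and 0 were called, beside 37.3% of all tested genes. Slc7a3 (chromosome X, 98274560 to 98280691), the CAT3 carrier, was at 77.4, 88.1, 71.3 and 81.4 FPKM in mESC 1 to 4 and at 51.5, 74.3, 60.5 and 65.1 in mEpiSC 1 to 4. The ranges overlapped at 1 mEpiSC library, and the difference was -0.34 log2 (SE 0.14, limma adjusted p = 0.077). It held 74.9 to 84.9% of the summed FPKM of the 4 genes in mESC and 75 to 89.3% in mEpiSC, so it was the main cationic carrier RNA in both states. Slc7a1, the CAT1 carrier, was at 18.2 ± 5.38 FPKM in mESC and 10.2 ± 4.3 in mEpiSC (SD, n = 4 each), a difference of -0.82 log2 (SE 0.30, limma adjusted p = 0.056). Slc7a2, the CAT2 carrier, was at 0.679 ± 0.343 and 1.56 ± 0.681 FPKM (SD, n = 4 each), a difference of 0.59 log2 (limma adjusted p = 0.073; 0.031 without mEpiSC 3). With the replicate block the adjusted p was 0.028 for Slc7a3 and 0.018 for Slc7a1. With median ratio scaling it was 0.013 and 0.033, and for Slc7a1 it was also 0.032 without mEpiSC 1 and 0.038 without mEpiSC 4.

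The neutral exchangers of the SLC1 family are Slc1a4 and Slc1a5. Slc1a5 (chromosome 7, 17366695 to 17383623), the ASCT2 exchanger known for glutamine uptake, was at 65.5, 61.7, 39.2 and 48.8 FPKM in mESC 1 to 4 and at 12.4, 13.4, 10.9 and 45 in mEpiSC 1 to 4. The EpiSC5 and EpiSC7 libraries were low, and the EpiSC9 library lay inside the mESC range. It fell by 1.58 on the log2 scale (SE 0.40, limma adjusted p = 0.014), and without mEpiSC 4 by 2.03 (adjusted p = 2.3e-04). The call was lost with 1 mean per line (adjusted p = 0.17), without a filter on low genes (0.063) and with the fibroblast covariate (0.1). Slc1a4, the ASCT1 exchanger of alanine, serine and cysteine, was at 14.8 ± 3.63 FPKM in mESC and 13.1 ± 4.22 in mEpiSC (SD, n = 4 each), with an interval of -0.74 to 0.37 log2. Slc1a5 made up 77.5 to 79.1% of the sum of both genes in mESC, and 39.9, 51, 56.2 and 78.7% in mEpiSC 1 to 4.

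Among the glutamate carriers 1 of 5 was tested. Slc1a3 (chromosome 15, 8584124 to 8660807), the GLAST carrier of glutamate and aspartate, was at 4.81, 7.17, 5.04 and 4.13 FPKM in mESC 1 to 4 and at 11.5, 13.3, 12.1 and 10.3 in mEpiSC 1 to 4. The states did not overlap. It rose 2.06-fold on the log2(FPKM + 1) scale (1.04 log2, SE 0.16, limma adjusted p = 0.0016) and was called under all 19 alternatives, including the fibroblast covariate (0.97 log2). The other 4 glutamate carriers were not tested, and Slc1a3 held 81.6 to 92.3% of the summed FPKM of the 5 in mESC and 83.2 to 92.3% in mEpiSC.

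Of the 11 SLC38 genes, 9 were tested, 3 rose and 2 fell (55.6% called, beside 37.3% of all tested genes). Its summed level was 249, 214, 223 and 221 FPKM in mESC 1 to 4 and 240.4, 212, 225 and 159 in mEpiSC 1 to 4, and these ranges overlapped, with EpiSC9 lowest. Slc38a2 (chromosome 15, 96517823 to 96530129), the SNAT2 carrier that cells are known to induce when amino acids run short, was at 131, 96.2, 119.8 and 75.2 FPKM in mESC 1 to 4 and at 96.1, 101, 116 and 53.2 in mEpiSC 1 to 4. Both replicate 4 libraries were the lowest of their state, and the difference was -0.23 log2 (SE 0.26, limma adjusted p = 0.53). Slc38a1 (chromosome 15, 96401849 to 96473344), the SNAT1 carrier of glutamine, was at 33.3, 38.7, 22.6 and 26.4 FPKM in mESC 1 to 4 and at 43.2, 34.9, 31.7 and 28.3 in mEpiSC 1 to 4. Its states overlapped, with an interval of -0.23 to 0.63 log2 (limma adjusted p = 0.45).

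Slc38a4 (chromosome 15, 96825254 to 96886387), the SNAT4 carrier and an imprinted gene expressed from the paternal copy in mouse, was at 43.6, 36.8, 43.8 and 79.2 FPKM in mESC 1 to 4 and at 31, 27.8, 29 and 29.2 in mEpiSC 1 to 4. The mEpiSC libraries were within a narrow range below all mESC libraries, and mESC 4 was far above the other mESC libraries. It fell by 0.72 on the log2 scale (SE 0.21, limma adjusted p = 0.028). The call was lost without mESC 3 (adjusted p = 0.051), mEpiSC 2 (0.067) or mEpiSC 3 (0.064), with cell line as a random block (0.099), with 1 mean per line (0.078), without a filter (0.081) and with the fibroblast covariate (0.2). Slc38a1, Slc38a2 and Slc38a4 lie side by side on chromosome 15, 44.5 and 295.1 kb apart, and of these neighbours Slc38a4 was the member called.

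Slc38a3 and Slc38a5 are system N carriers, known for glutamine, histidine and asparagine, and both rose. Slc38a3 (chromosome 9, 107553486 to 107571299) was at 3.68, 3.79, 1.86 and 2.66 FPKM in mESC 1 to 4 and at 11, 8.92, 9.44 and 9.62 in mEpiSC 1 to 4. Every mEpiSC library was above every mESC library, in all 3 mEpiSC lines. It rose 2.74-fold on the log2(FPKM + 1) scale (1.45 log2, SE 0.18, limma adjusted p = 6.1e-04) and was called under all 19 alternatives, with 1.30 log2 under the fibroblast covariate. Slc38a5 (chromosome X, 7848518 to 7857302) was at 0.158, 1.12, 0.202 and 0.507 FPKM in mESC 1 to 4 and at 16.4, 2.9, 2.2 and 1.98 in mEpiSC 1 to 4. All mEpiSC libraries were above all mESC libraries, and EpiSC5 was far above the other lines. It rose by 1.80 log2 (SE 0.53, limma adjusted p = 0.026), and by 1.20 log2 without mEpiSC 1 (adjusted p = 0.0074). The call was lost without mESC 1 (adjusted p = 0.066), mESC 3 (0.07) or mESC 4 (0.051), with cell line as a random block (0.052), with 1 mean per line (0.15), with a pseudocount of 5 (0.08), without a filter (0.092) and with the fibroblast covariate (0.18). Its lowest library rests on about 10 fragments. EpiSC5 was also the library with the highest summed primitive endoderm markers (71.1 FPKM), and their part in the Slc38a5 level was not tested.

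Slc38a7, a lysosomal glutamine carrier, fell from 13.7 ± 2.67 to 8.97 ± 1.72 FPKM (SD, n = 4 each; -0.56 log2, SE 0.17, limma adjusted p = 0.032). The call was lost without any 1 of mESC 1, 2 and 4 and mEpiSC 1, 2 and 3 (adjusted p = 0.055 to 0.089), with cell line as a random block (0.13), with 1 mean per line (0.16), without a filter (0.069) and with the fibroblast covariate (0.2). Slc38a10 (chromosome 11, 119965265 to 120012665) was at 17.6, 17.6, 17.3 and 14.1 FPKM in mESC 1 to 4 and at 24.8, 21.3, 23 and 20.2 in mEpiSC 1 to 4. The states did not overlap, and it rose by 0.40 log2 (SE 0.12, limma adjusted p = 0.027). That call was lost without mESC 1, 3 or 4 or mEpiSC 1, 2 or 3 (adjusted p = 0.0501 to 0.072), with median ratio scaling (0.14) or quantile normalization (0.068), with cell line as a random block (0.087), with 1 mean per line (0.16) and with the fibroblast covariate (0.2). Slc38a9, the lysosomal arginine sensor upstream of mTORC1, was at 2.38 ± 0.256 and 3.04 ± 0.522 FPKM (SD, n = 4 each), with an interval of -0.08 to 0.59 log2. Slc38a6 was at 3.52 ± 0.591 and 3.81 ± 1.17 FPKM (SD, n = 4 each), and 41.3% of its windows are shared with other genes, Noct above all, which makes its level uncertain.

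Of the 17 SLC6 genes, 4 were tested and Slc6a6 rose (25% called, beside 37.3% of all tested genes). Slc6a6 (chromosome 6, 91634061 to 91709057), the taurine carrier, was at 16.8, 18.6, 22.3 and 21.7 FPKM in mESC 1 to 4 and at 36.4, 29.5, 37.3 and 20.3 in mEpiSC 1 to 4. EpiSC5 and EpiSC7 were above all mESC libraries and EpiSC9 was among them. It rose by 0.58 log2 (SE 0.20, limma adjusted p = 0.044), and the call was lost without any 1 library other than mEpiSC 4 (adjusted p = 0.058 to 0.12). It was also lost with median ratio scaling (0.14) or quantile normalization (0.069), with cell line as a random block (0.11), with 1 mean per line (0.26), without a filter (0.1) and with the fibroblast covariate (0.17). Slc6a8, the creatine carrier, was at 11.7 ± 4.13 FPKM in mESC and 6.92 ± 1.52 in mEpiSC (SD, n = 4 each), a difference of -0.65 log2 (limma adjusted p = 0.065). With the replicate block its adjusted p was 0.028, with either other scaling 0.038, and without mESC 2 or mEpiSC 4 it was 0.022 and 0.041. Slc6a9, the GlyT1 glycine carrier, was at 2.62 ± 0.306 and 3.89 ± 0.718 FPKM (SD, n = 4 each; limma adjusted p = 0.053; 0.049 without mESC 4, 0.021 without mEpiSC 4), and 33% of its windows are shared, mostly with the overlapping gene Ccdc24. Slc6a15, a carrier of branched-chain amino acids and proline, was at 4.32 ± 1.69 and 5.89 ± 1.14 FPKM (SD, n = 4 each; limma adjusted p = 0.21).

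Proton-coupled and sodium-independent carriers were low in both states. Slc36a4, the PAT4 carrier of proline and tryptophan, rose from 1.36 ± 0.205 to 2.87 ± 0.517 FPKM (SD, n = 4 each; 0.71 log2, SE 0.15, limma adjusted p = 0.006) and lost the call in 1 alternative, 1 mean per line (adjusted p = 0.072). Slc36a1, the PAT1 carrier of lysosomes and the cell surface, was at 2.51 ± 0.664 and 3.63 ± 0.641 FPKM (SD, n = 4 each; limma adjusted p = 0.11). Slc43a3, a family member known as a carrier of purine bases rather than amino acids, rose from 3.42 ± 0.526 to 5.77 ± 1.36 FPKM (SD, n = 4 each; 0.60 log2, SE 0.19, limma adjusted p = 0.033). Its call was lost without mESC 1 or 3 or mEpiSC 2, 3 or 4 (adjusted p = 0.06 to 0.096), with median ratio scaling (0.056) or quantile normalization (0.14), with cell line as a random block (0.1), with 1 mean per line (0.23) and without a filter (0.067). The leucine carriers Slc43a1 (LAT3) and Slc43a2 (LAT4) were not called, with intervals of -0.31 to 0.40 and -0.68 to 0.02 log2. Slc43a2 values did not overlap between the states, and its adjusted p was 0.044 with median ratio scaling and 0.022 with quantile normalization.

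Lines were also compared within each state, with fewer libraries per group than between the states. Between ESF175/1 and ESF122, 0 of 30 transporters passed the limma test at an adjusted p under 0.05, beside 0.762% of all tested genes. At an unadjusted p under 0.05 there were 6 transporters. The share of all genes at that threshold was not counted, so no line difference can be read from that number. Over the 3 mEpiSC lines, 3 of 30 passed the limma F test, beside 2.6% of all genes. EpiSC5 and EpiSC9 have 1 library each, so the spread in that test came from the lines with 2 libraries, these lone libraries are assumed to vary alike, and for them line and library cannot be told apart. Slc1a5 (range 1.81 log2 over the lines, limma adjusted p = 0.025) was highest in the EpiSC9 library, Slc7a8 (range 3.57 log2, adjusted p = 0.011) was lowest in the EpiSC9 library, and Slc38a5 (range 2.55 log2, adjusted p = 0.044) was highest in the EpiSC5 library. Without a filter on low genes, 0 of the 3 were called (adjusted p = 0.081, 0.064 and 0.19), and Slc38a5 was at 0.052 with median ratio scaling and 0.19 with a pseudocount of 0.1. EpiSC9 also had the lowest fibroblast marker sum of the mEpiSC libraries (100.5 FPKM), whose part in these values was not tested.

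**Figure D4:**
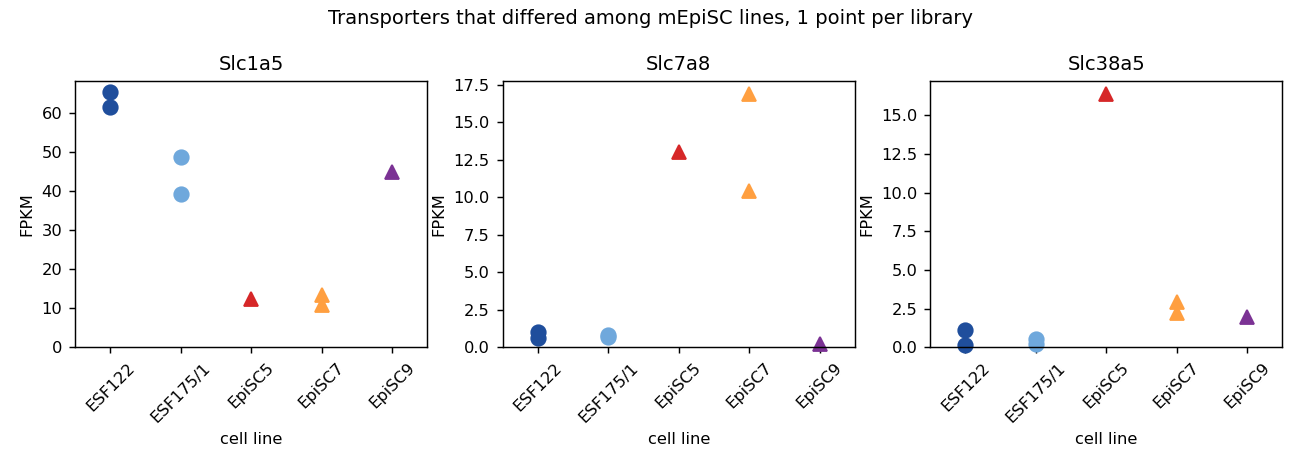
FPKM of Slc1a5, Slc7a8 and Slc38a5 in each cell line, with 1 point per library and circles for mESC and triangles for mEpiSC. The EpiSC9 library is within the mESC range for Slc1a5 and below it for Slc7a8 (0.2 FPKM), and EpiSC5 is highest for Slc38a5 (16.4 FPKM).

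The 29 transporters that were not tested reached at most 1.75 FPKM (Slc7a4 in mEpiSC 4), and 4 of them (Slc38a11, Slc6a18, Slc7a12 and Slc7a13) were listed at 0 in all 8 libraries. The 2 states did not overlap for 5 of the 29, all below 1 FPKM, beside 37.1% of all tested genes. The share among all genes that were not tested was not counted. Slc7a9, a light chain for cystine, was at 0.257, 0.651, 0.372 and 0.193 FPKM in mESC 1 to 4 and at 0.014, 0, 0.0412 and 0.0659 in mEpiSC 1 to 4. The glutamine carrier Slc38a8 (means 0.209 and 0.0401 FPKM) and the proline carrier Slc6a7 (0.195 and 0.00428) were likewise lower in every mEpiSC library. The GLT-1 glutamate carrier Slc1a2 (0.0319 and 0.3) and the PAT2 carrier Slc36a2 (0.0269 and 0.167) were higher in every mEpiSC library. When all 59 were fitted without a filter, Slc1a2, Slc6a7 and Slc7a9 were called. Their lowest values above 0 rest on about 1.18, 1 and 0.39 fragments, so these calls are near the floor. That fit called 6 of the 59 higher and 3 lower, beside 2711 higher and 1911 lower of 22987 genes. It kept 6 of the 12 calls of the main fit.

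Promoters were searched for 2 short elements, since amino acid carriers are known targets of ATF4, which binds the amino acid response element (searched as TGATGNAA), and of NRF2, which binds the antioxidant response element (searched as TGACNNNGC), on both strands. RefSeq promoters (GRCm38.p6, 250 bases before to 50 after a gene start) were matched for 41 of the 59 transporters, 20 of them tested. TGATGNAA was present in 3 of these 20 genes (Slc7a11, Slc1a4 and Slc7a7), beside 2.53% of 8309 tested genes and 4.51% of all 27025 genes with a promoter. TGACNNNGC was present in 6 of the 20 (Slc36a1, Slc38a2, Slc43a1, Slc6a9, Slc7a1 and Slc7a6), beside 17.2% of tested genes and 14% of all genes. Of the 9 genes with either element, Slc7a6 was the 1 called between the states, beside 37.3% of all tested genes called. The called genes Slc1a3, Slc36a4, Slc38a4, Slc38a5, Slc38a7 and Slc38a10 had matched promoters without either element. Whether calls differ with the elements was not tested. Promoters of the called genes Slc7a5, Slc1a5, Slc38a3, Slc6a6 and Slc43a3 were not analysed here. The promoters with a TGATGNAA match nearest the start in single-promoter genes, and that of Slc7a6, are shown with the match in capitals. They lie at chr3:50443564-50443863 (minus strand) for Slc7a11, chr11:20332664-20332963 (minus strand) for Slc1a4 and chr8:106168604-106168903 (plus strand) for Slc7a6.
Slc7a11: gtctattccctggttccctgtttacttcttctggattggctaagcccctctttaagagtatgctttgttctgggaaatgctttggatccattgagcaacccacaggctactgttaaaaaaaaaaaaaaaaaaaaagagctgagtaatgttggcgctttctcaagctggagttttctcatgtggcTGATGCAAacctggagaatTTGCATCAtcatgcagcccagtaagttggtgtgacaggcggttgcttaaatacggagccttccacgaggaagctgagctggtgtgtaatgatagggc
Slc1a4: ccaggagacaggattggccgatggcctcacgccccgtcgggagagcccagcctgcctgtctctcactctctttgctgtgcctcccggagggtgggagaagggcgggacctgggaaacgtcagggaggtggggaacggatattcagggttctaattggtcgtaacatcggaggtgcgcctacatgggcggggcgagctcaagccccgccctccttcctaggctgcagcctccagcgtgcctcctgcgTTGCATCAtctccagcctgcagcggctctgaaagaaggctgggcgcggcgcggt
Slc7a6: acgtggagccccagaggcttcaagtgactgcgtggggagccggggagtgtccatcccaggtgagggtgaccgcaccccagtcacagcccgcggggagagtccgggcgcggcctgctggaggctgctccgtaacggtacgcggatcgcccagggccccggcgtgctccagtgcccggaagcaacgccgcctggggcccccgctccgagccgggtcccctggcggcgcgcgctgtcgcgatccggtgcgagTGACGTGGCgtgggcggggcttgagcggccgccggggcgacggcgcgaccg
In Slc7a11 the matches, on opposite strands, start 66 and 47 bases before the gene start. In Slc1a4 the match starts 4 bases before it, and in Slc7a6 1 base before the start shown. The table has a further Slc7a6 start, with the promoter at chr8:106168671-106168970, and the same match starts 68 bases before it. A match is a stretch of letters, not a measured binding site.

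Genes around amino acid supply were counted in 7 further lists. Of 16 genes of the amino acid response (ATF4) all were tested, 4 fell and 1 rose (31.2% called, beside 37.3% of all tested genes), with a median of -0.07 log2. Nupr1, a stress-induced chromatin protein, fell from 26.3 ± 6.77 to 5.79 ± 3.22 FPKM (SD, n = 4 each; -2.13 log2, SE 0.38), Trib3, a feedback inhibitor of ATF4, from 19.8 ± 9.3 to 4.41 ± 2.55 (-1.99 log2, SE 0.40), and Sesn2, a leucine sensor, from 38.5 ± 5.42 to 14.2 ± 4.23 (-1.41 log2, SE 0.19). Vldlr, a lipoprotein receptor, rose by 1.30 log2 (SE 0.22). Atf4 itself was at 153 ± 35.3 and 107 ± 23.1 FPKM (SD, n = 4 each; limma adjusted p = 0.088), and Asns, the asparagine synthetase, at 144 ± 55.7 and 107 ± 77.2 (limma adjusted p = 0.31). With the replicate block 7 of the 16 were lower.

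Of 11 genes listed under glutathione synthesis and cystine use, 8 fell and 0 rose (72.7% called, beside 37.3% of all tested genes, of which 14.2% lower), with a median of -0.65 log2, while the cystine carrier Slc7a11 was not called. The list also holds Nqo1, Hmox1, Nfe2l2 and Keap1, which do not make glutathione, and of these all but Keap1 were among the 8. Gpx4, also among the 8, shares 51.4% of its windows with Gpx4-ps2, which makes its level uncertain. Nqo1, a quinone reductase and NRF2 target, fell from 12.8 ± 2.31 to 2.29 ± 1.33 FPKM (SD, n = 4 each; -2.12 log2, SE 0.25, limma adjusted p = 4.9e-04). Gclm, the modifier subunit of the first enzyme of glutathione synthesis, fell from 49.2 ± 9.26 to 22.9 ± 5.19 FPKM (-1.08 log2, SE 0.19), Hmox1, the heme oxygenase, from 87.9 ± 25.1 to 42.4 ± 18.7 (-1.08 log2, SE 0.30), and Gpx1, a glutathione peroxidase, from 262 ± 73 to 130.3 ± 28.9 (-0.99 log2, SE 0.22). The count was 5 without mESC 1 or mEpiSC 3, 4 with cell line as a random block, 3 with the fibroblast covariate and 1 with 1 mean per line.

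Of 19 cytosolic aminoacyl-tRNA synthetases, which load amino acids onto tRNA, 6 fell and 0 rose (31.6% called, beside 37.3% of all tested genes, median -0.32 log2). Aars, the alanine enzyme, fell from 114 ± 19.5 to 57.1 ± 8.8 FPKM (SD, n = 4 each; -0.99 log2, SE 0.16), followed by Cars (-0.72), Nars (-0.58) and Tars (-0.48). The count was 2 without mESC 1, 2 or 4 or mEpiSC 3, 3 without mEpiSC 2, 9 without mEpiSC 4, 12 with median ratio scaling and 3 with the fibroblast covariate. Of 12 genes of glutamine and glutamate metabolism 10 were tested, 3 fell (Gls2, the liver-type glutaminase, by 1.43 on the log2 scale, Gpt2 by 0.63 and Glud1 by 0.50) and 0 rose. These were 30% called, beside 37.3% of all tested genes. The count of lower genes in this list was 5 without mEpiSC 4 and 1 with the fibroblast covariate.

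Of 10 genes of serine, proline and cysteine synthesis, 1 fell, Mthfd2 (75.7 ± 33.1 to 39.3 ± 11.1 FPKM, SD, n = 4 each). That was 10% called, beside 37.3% of all tested genes. The count was 7 without mEpiSC 4 and 0 without mESC 1, 2 or 4 or mEpiSC 1, 2 or 3. Of 24 tested genes of mTORC1 amino acid sensing, 1 rose (Mlst8, 0.40 log2) and 1 fell (Rragb, -0.68 log2). That was 8.33% called, beside 37.3% of all tested genes. For 20 of the 24 the 95% interval lay within 1 log2 unit, beside 62.2% of all tested genes. Of 8 tested amino acid carriers outside the 7 families (62.5% called, beside 37.3% of all tested genes), 4 mitochondrial ones fell. Slc25a44, a mitochondrial carrier of branched-chain amino acids, rose by 0.49 log2, and Slc25a22, of the same family, was not called (0.26 log2, limma adjusted p = 0.33). Slc25a12, the aspartate/glutamate carrier of the malate-aspartate shuttle, fell from 15.1 ± 4.95 to 3.31 ± 0.761 FPKM (SD, n = 4 each; -1.87 log2, SE 0.23, limma adjusted p = 6.1e-04), Slc25a15, the ornithine carrier, by 1.12, Slc25a38, a glycine carrier, by 0.63, and Slc25a13 by 0.60 on the log2 scale.

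**Figure D5:**
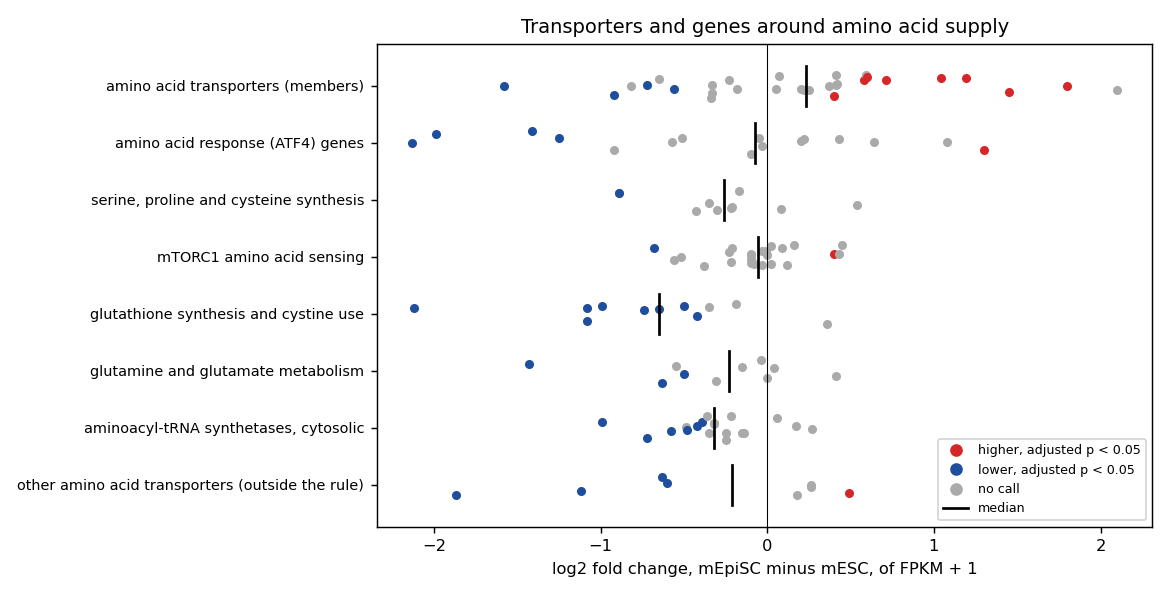
Log2 fold change between states for each tested gene of the transporters and of the 7 further lists, with 1 point per gene, coloured where the limma adjusted p was under 0.05, and a bar at the median. The transporters spread to both sides (8 higher, 4 lower), and in the glutathione list 8 of 11 genes lie among the lower calls.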

How the data were processed

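RNA of 8 libraries was sequenced as polyadenylated RNA (TruSeq). The deposited FPKM per gene were made by the authors with TopHat2 2.0.6 and Cufflinks 2.0.2 on mm9, per the submitters' processing notes; for annotation and strand the setting is not given in the sources used here. The tables have 23699 entries each, and 248 symbols at several loci (712 entries) were left out. Deposited starts count from 0 and were written from 1. The fragments behind a value were inferred from the FPKM and the upper bound of its deposited confidence interval. Of low values, 80.1 to 80.9% came out whole, within 0.05, so depth is approximate and no count test was run.

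Genes that reached 1 FPKM in 4 or more libraries were tested on log2(FPKM + 1) with limma 3.58.1 (trend and robust settings, R 4.3.3), adjusted over all 11556 genes, and the code was tested on simulated data. Fold changes on this scale understate those of low genes. A second fit had 1 mean for each of the 5 lines. Deviations of same-numbered libraries of the 2 states had correlations of 0.22, 0.15, 0.18 and 0.51. Differently numbered pairs, mESC 3 with mEpiSC 2 (0.21) and mESC 2 with mEpiSC 3 (0.19), correlated as strongly as those numbered 1 to 3. The main fit was therefore unpaired, and a block on the replicate number was run as an alternative. Any such pairing comes from the data, not the labels, and the numbers name different lines. Adjusted p-values with that block rest on it. Alternatives covered the pseudocount, filter, scaling, blocks, libraries left out and a fibroblast covariate. Values in every library are printed for transporters changed at least 2-fold, at a mean of at least 20 FPKM in a state, or passing a line test; other lists are represented by up to 4 genes with the largest changes, and genes printed beyond these (Slc7a9, Atf4 and Asns) were chosen after their values were seen. The transporters, lists and tests were chosen with earlier results of these data known.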

Additional observations from a re-analysis of the deposited data

Results flagged for a closer look

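In 60 groups of 4 libraries (each tested transporter in each state), 6 held a library far from the other 3 by Dixon's criterion. Chance meets it in about 1 in 20 groups of like libraries. The groups here mix cell lines, so that rate may not hold, and the share over all tested genes was not counted. In mEpiSC 4 (EpiSC9), Slc1a5 was at 45 FPKM against 10.9 to 13.4 in the other mEpiSC libraries, Slc7a8 at 0.2 against 10.4 to 16.9, and Slc38a9 at 2.26 against 3.24 to 3.35. In mEpiSC 1 (EpiSC5), Slc38a5 was at 16.4 FPKM against 1.98 to 2.9, and Slc43a3 at 3.74 against 6.39 to 6.53. In mESC 4 (ESF175/1), Slc38a10 was at 14.1 FPKM against 17.3 to 17.6.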

How the results depend on the processing

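None of the called genes changed direction in the alternatives run. Among uncalled transporters, Slc38a1, Slc38a2, Slc38a6, Slc43a1 and Slc7a7 took both signs, and the median log2 of members, 0.237, was -0.068 with a mean of at least 5 FPKM. Against 8 higher and 4 lower transporters, the counts were 5 and 4 with a mean of at least 5 FPKM (20 transporters tested), 5 and 8 with median ratio scaling, 5 and 7 with quantile normalization, 4 and 1 with cell line as a random block, 3 and 1 with 1 mean per line, and 5 and 0 with the fibroblast covariate (added after seeing the data). Leaving out 1 library gave 4 to 9 higher and 2 to 6 lower. The replicate block gave 9 and 8, keeping all 12 calls and adding Slc7a8 (higher) and Slc3a2, Slc6a8, Slc7a1 and Slc7a3 (lower). At 2-fold or more, 4 higher became 2 with a pseudocount of 5 or the covariate and 2 to 5 with a library left out, and 1 lower became 2 with median ratio scaling, 0 without filter, with 1 mean per line or the covariate, and 1 to 2 with a library left out. The 16 transporters within 1 log2 unit were 44 without filter (59 tested) and 10 with the mean filter. Over all genes, 2665 higher became 1597 with the mean filter and 865 with 1 mean per line, and 1640 lower became 1046 with the random block and 557 with 1 mean per line. Median ratio scaling gave 2139 higher and 2346 lower over all genes, and quantile normalization 2187 and 2211. In the other lists together, 3 higher and 27 lower became 1 and 13 with the random block, 1 and 8 with 1 mean per line and 1 and 13 with the covariate; higher was 1 with either scaling, and leaving out a library gave 1 to 4 higher and 17 to 40 lower. The 3 transporters called over mEpiSC lines became 0 without filter. The mean filter and no filter change which genes are tested, and 1 mean per line leaves 5 samples; for the other changes the cause was not tested.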
